A study of Mus musculus with 3 samples.

Results

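Globin-high cells were chosen by their globin share: the summed UMIs (unique RNA molecules) of Hbb-y, Hbb-bh1, Hba-x, Hba-a1 and Hba-a2 made up 10% or more of all UMIs of the cell. This rule found 1959 of 14777 cells (13.3%). They came from 20 of 22 barcode samples, with 1392 in 12 control samples and 567 in 10 mutant samples. The globin sum was used for the choice and is given below only as a description. The proportions of the single globin chains, the other genes, the stage and the genotype were not used by the rule.

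All mice were on a C57BL/6 background, and all embryos carried Mesp1-Cre and the Ai9 reporter allele. Controls were Mesp1-Cre; Ai9; Wls fl/+ and mutants Mesp1-Cre; Ai9; Wls fl/fl; the deposited cell table calls these conditions wildtype and knockout, and the genotypes were assigned to them from the labels. Mesp1-Cre acts in nascent mesoderm and switches on tdTomato from Ai9 in those cells and their descendants, so Wls was deleted only in that lineage and the controls lost 1 allele there too. Wls is the carrier protein that Wnt-producing cells need to secrete Wnt ligands. Embryos were dissociated, tagged with MULTI-seq lipid barcodes, sorted for tdTomato and captured with the 10x Chromium v3 kit. There were 3 control and 3 mutant samples at embryonic day E8.0, 2 and 1 at E8.5 and 6 and 6 at E9.5. One more control sample, Bar18, carries the stage label E7.5 and entered no comparison. Samples are called by their barcode (Bar1 to Bar29). The labels do not say whether a barcode held 1 embryo or several. The male share, the fraction of cells with more Y-linked than Xist UMIs among cells where these differ, was 0.511 in Bar29. That sample thus held cells of both sexes.

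Primitive erythroid cells are the first red blood cells of the embryo. They arise in the blood islands of the yolk sac from extraembryonic mesoderm, enter the circulation when the heart starts to beat and mature together as a wave while they circulate. They make embryonic hemoglobin from zeta globin (Hba-x) or alpha globin (Hba-a1, Hba-a2) paired with the beta-like chains epsilon-y (Hbb-y) and beta-h1 (Hbb-bh1), and their chain use shifts as they mature. Heme is built from glycine in mitochondria and cytosol, beginning with Alas2, and needs iron taken up through the transferrin receptor.

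Summed over their globin-high cells, the 13 samples used for gene tests held 511709 (Bar10) to 14688562 (Bar3) UMIs. The median globin-high cell had 27247 UMIs (911 to 83577) and 3960 genes per cell, against 21135.5 UMIs and 5221 genes in the other cells. The 3 sequencing runs held 673, 868 and 418 of them, with median depths of 33338, 28508 and 17406.5 UMIs. E8.0 lay in the NovaSeq run alone, E8.5 in 1 NextSeq run alone and E9.5 in all 3 runs. The cells under the threshold, low in globin by the rule, had a median globin share of 0.171%, from 0.127% to 0.614% between runs. Between runs, 23 cell barcodes were shared, and 4 globin-high cells had one of these. Scrublet called 44 of the globin-high cells doublets (2.25%), and they were kept.

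The cells carried an erythroid programme beyond the globins. Slc4a1, the band 3 anion exchanger of the red cell membrane and the one fixed marker outside the rule, had 573 ± 143 counts per 1000000 non-globin UMIs (CPM; SD, n = 13 samples with at least 20 globin-high cells; range 393 to 837), against 7.47 CPM in the other cells of these samples, and was higher in all 13. The globin share chose the cells, so the contrast with other cells is given with no test. The first heme enzyme Alas2 stood at 284 CPM, the erythroid factors Klf1 at 350, Tal1 at 199 and Gata1 at 146, and the erythropoietin receptor Epor at 195. Among the heme genes with the highest means were Tmem14c (3628 CPM, a mitochondrial porphyrinogen transporter), Alad (2097) and Cpox (1391). The ferritin chains led the iron genes, with Fth1 at 13563 CPM and Ftl1 at 6241, ahead of the mitochondrial iron importer Slc25a37 at 1646 and the transferrin receptor Tfrc at 335. Prdx2 (5560 CPM), Gpx1 (3617), the carbonic anhydrase Car2 (2827) and the biliverdin reductase Blvrb (2068) were the highest of the redox list.

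Markers of other cell types were measured in the same samples. The 8 myeloid markers summed to 0 to 4.16 CPM per sample, with C1qb at 0 in all of them, against 1.30 to 146 in the other cells. The 8 megakaryocyte markers summed to 20.0 to 44.1 CPM (median 30.2), with Gp1bb at 0, against a median of 36.6 and up to 649 in the other cells. The 10 endothelial markers summed to 71.3 to 213 CPM against 174 to 506 in the other cells, the 10 cardiomyocyte markers to 39.3 to 499 against 1580 to 12820, the 10 mesenchyme markers to 16.0 to 158 against 737 to 1619 and the 10 endoderm markers to 1.06 to 147 against 18.0 to 961. The adult-type beta globins, which the rule did not use, were present: Hbb-bs had 1951 to 6093 CPM per sample, against 9.57 to 185 CPM in the other cells, and Hbb-bt 161 to 1261. Sox6 and Bcl11a, which repress embryonic globins in definitive erythroid cells, stood at means of 0.99 and 0.35 CPM. The markers gave no ground to change the label.

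The threshold cut a continuous range. Over all stages, the 86 cells just under it, with 7.5% to 10% globin, had 227 CPM of Slc4a1, 80.4 of Alas2 and 304 of Klf1, and the 80 cells just above it had 330, 107 and 308. Of the cells with 5% to 10% globin, 179 were at E8.0, 8 at E8.5 and 26 at E9.5. Counts of globin-high cells at E8.0 therefore depend on where the threshold lies, and the other stages had few cells near it.

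Globin load was lower at E8.0 than in most samples of the later stages. At E8.0 the median globin share was 13.5%, 158 of 168 globin-high cells were under 20%, and none reached 40%. At E8.5 the sample medians were 42.1% in the control Bar3, which held 433 of the 488 cells, 25.7% in the mutant Bar1 and 16.6% in the 6 cells of the control Bar2. In Bar3 58.2% of the globin-high cells reached 40%, and in Bar1 2.04%. At E9.5 the median was 36.6%, and 472 of 1284 cells reached 40%. Within E9.5 the sample medians ran from 30.9% in the control Bar22 to 47.1% in the control Bar7, with the mutants at 33.0% (Bar20), 37.1% (Bar21), 38.8% (Bar19) and 40.9% (Bar10). The highest share in any cell was 66.7%.

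The share of sorted cells that were globin-high rose from E8.0 to E9.5. At E8.0 the control Bar26 held 109 of 614 cells (17.8%), and the controls Bar24 and Bar29 held none, which allows shares of up to 0.817% and 0.528%. The mutants Bar27, Bar28 and Bar25 held 43 of 701 (6.13%), 11 of 560 (1.96%) and 5 of 392 (1.28%). At E9.5 the 11 samples with at least 20 cells ran from 8.49% (control Bar23, 146 of 1719) over a median of 17.8% to 40.9% (control Bar7, 67 of 164). Thus 1 of 6 E8.0 samples reached the E9.5 range. The mean log2 odds differed by 3.98 (exact permutation test, two-sided, p = 0.00113, 17 samples), by 3.48 within the run that holds both stages (exact p = 0.0346, 11 samples), and by 1.27 at a globin threshold of 5% (exact p = 0.0457). Bar24 and Bar29, with no globin-high cell, held 47 and 15 cells of 5% to 10% globin.

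**Figure D1:**
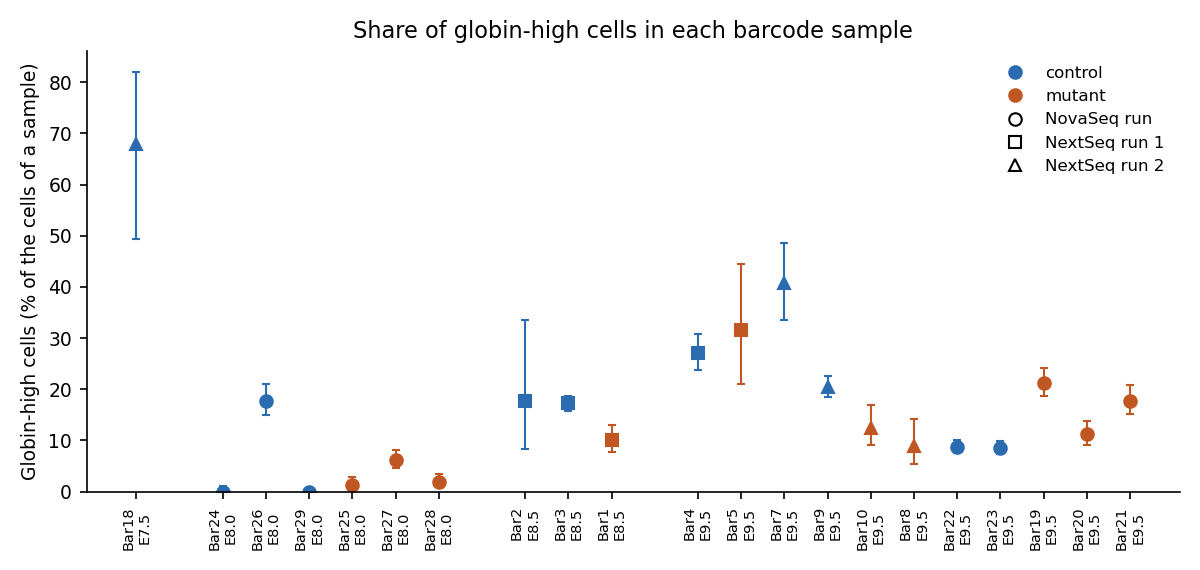
Share of globin-high cells (y axis, percent of the cells of a sample) in each barcode sample (x axis, ordered by stage), coloured by genotype, with a marker shape for each run and 95% Wilson intervals, which cover counting error only; Bar6, with 6 cells, is not drawn. At E8.0 the control Bar26 lies at 17.8% and the other 5 samples at or under 6.13%, while the E9.5 samples run from 8.49% to 40.9%.

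No difference in this share between genotypes passed a test. The E9.5 controls held 27.1% (Bar4), 40.9% (Bar7), 20.5% (Bar9), 8.77% (Bar22) and 8.49% (Bar23), and the mutants 31.6% (Bar5), 8.93% (Bar8), 35 of 280 cells (Bar10), 21.3% (Bar19), 11.2% (Bar20) and 17.8% (Bar21), so the groups overlapped. At E8.5 the controls Bar3 and Bar2 held 17.3% (433 of 2508) and 17.6% (6 of 34), and the mutant Bar1 10.1% (49 of 487). Over all stages, with genotype permuted within stage and run, the mutants differed from the controls by 0.43 in mean log2 odds (exact permutation test, two-sided, p = 0.604, 20 samples). The quasi-binomial model with stage and run gave a log2 odds of 0.11 (SE 0.48). Within E9.5 the runs pointed in opposite directions: the log2 odds was 1.13 (SE 0.36, 5 samples) in the NovaSeq run, where the 3 mutants lay above both controls, and −1.22 (SE 0.99, 4 samples) in the second NextSeq run, where both mutants lay below both controls. The p-values of this model within the runs were 0.0506 and 0.344, and the permutation test within E9.5 gave a difference of −0.14 in mean log2 odds (exact p = 0.825, 11 samples). Within E8.0 the difference was 2.08 (exact p = 0.4, 6 samples, 20 arrangements), where 2 of the 3 controls held no globin-high cell and the third held the highest share.

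The embryonic beta-like chains exchanged places between E8.0 and E9.5. Hbb-y made 43.6% of Hbb-y plus Hbb-bh1 UMIs in Bar26 and 36.2% in Bar27 at E8.0, and 70.7% to 80.7% with a median of 77.9% in the 9 E9.5 samples with at least 20 globin-high cells. Every E9.5 sample lay above both E8.0 samples, with a difference of the means of 36.4 percentage points (exact permutation test, two-sided, p = 0.0182, adjusted over 4 tests 0.0364). This p is the smallest that 55 arrangements can give. At E8.5 the control Bar3 stood at 83.5% and the mutant Bar1 at 72.1%, both above E8.0. As a share of the 5 globins, Hbb-bh1 went from 22.8% to 23.7% at E8.0 to 9.84% to 15.3% at E9.5, and Hbb-y from 13.4% to 17.6% to 36.8% to 46.9%.

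The alpha-like chains moved less. Alpha globin (Hba-a1 plus Hba-a2) made 15.4% and 16.0% of the alpha-like UMIs at E8.0, 20.3% and 17.4% in Bar3 and Bar1 at E8.5, and 19.1% to 27.0% with a median of 23.8% at E9.5, the rest being zeta globin. The E9.5 samples all lay above E8.0, by 8.07 points (exact permutation test, p = 0.0182, adjusted 0.0364). Zeta globin (Hba-x) was the most abundant chain at E8.0, at 50.4% and 52.8% of the globin UMIs, and had 29.6% to 39.6% at E9.5, where Hbb-y exceeded it in each of these samples except Bar23. Alpha-like chains together made 59.6% and 62.9% of globin UMIs at E8.0 and 39.8% to 49.0% at E9.5. Within the 1 run that holds both stages, the differences were 34.3 and 8.64 points, again without overlap, with p at the smallest value of that design (exact p = 0.0476, adjusted 0.0952, 7 samples). At a globin threshold of 5%, which gives 4 E8.0 samples, the differences were 46.4 and 8.64 points (exact permutation test, p = 0.0014, adjusted 0.0028). The added cells lay mostly at E8.0 (179 of 5% to 10% globin, against 26 at E9.5), where the Hbb-y share was lower at lower load. Leaving out an E8.0 sample ended both stage calls, as 10 arrangements cannot give an exact p under 0.1 (adjusted 0.2): the Hbb-y and alpha globin differences were 40.1 and 7.80 points without Bar26 and 32.7 and 8.35 without Bar27.

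**Figure D2:**
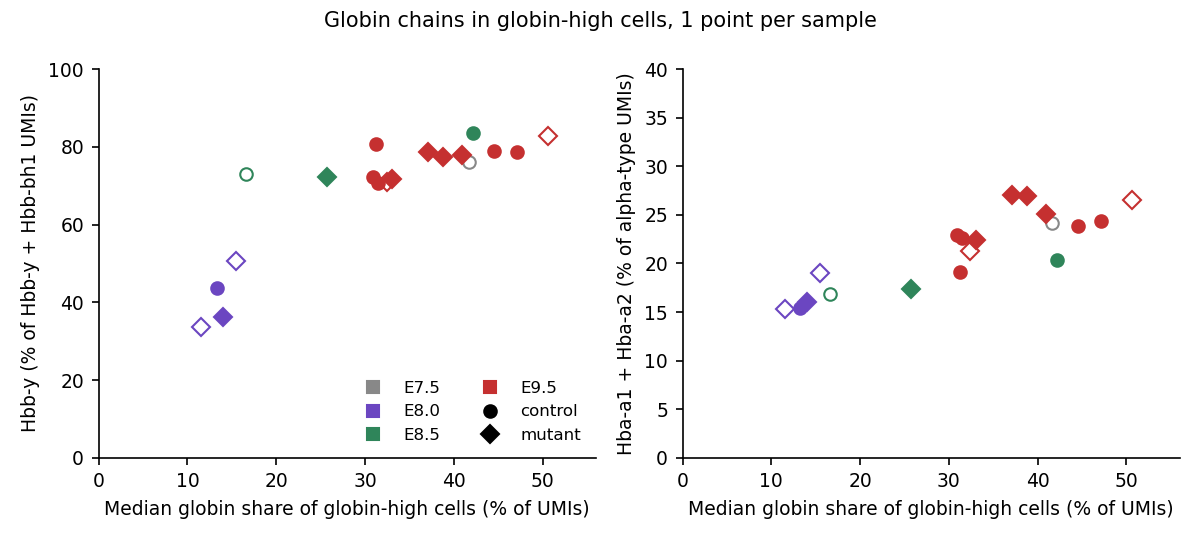
Hbb-y as percent of Hbb-y plus Hbb-bh1 UMIs (left, y axis) and Hba-a1 plus Hba-a2 as percent of alpha-like UMIs (right, y axis) against the median globin share of the globin-high cells (x axes, percent of UMIs), 1 point per barcode sample, coloured by stage with a marker shape for each genotype. Open markers are samples with under 20 globin-high cells, which entered no test; the filled E8.0 samples lie at 36.2% and 43.6% Hbb-y and the filled E9.5 samples at 70.7% or more.

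The beta-chain exchange tracked the globin load within E8.0, and the stages also differed within one bin of load. At E8.0, Hbb-y made 10.0% of beta-like UMIs in cells of 1% to 5% globin, 17.5% at 5% to 10% and 38.9% at 10% to 20%. At E9.5 it made 66.1% at 10% to 20% (54 cells of 10 samples), 75.1% at 20% to 40% and 79.1% at 40% or more. Alpha globin did not follow load at E8.0 (15.0%, 13.4% and 15.3% of alpha-like UMIs in the same bins) and stood at 20.1%, 22.3% and 25.2% in the E9.5 bins. These bins pool cells over samples and are given with no test. Load was not matched within a bin. Of the 158 E8.0 cells of 10% to 20% globin, 103 came from Bar26 and 40 from Bar27. Endothelial markers of this bin are given below, and their part in these ratios was not tested.

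Genotype gave no difference in either chain ratio that passed the test. Mutants differed from controls by −1.57 points in Hbb-y of beta-like UMIs (exact permutation test within stage and run, two-sided, p = 0.567, adjusted 0.567) and by 0.947 points in alpha globin of alpha-like UMIs (exact p = 0.358, adjusted 0.478), over 13 samples. The sign of the first difference turned to 0.498 points without Bar3 or Bar1 and to 1.62 points at a threshold of 5%. At E9.5 the controls spanned 70.7% to 80.7% Hbb-y and the mutants 71.6% to 78.7%.

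Hbb-y gained share among the beta-like chains and alpha globin relative to zeta globin. Hbb-y lies in the beta globin cluster at chr7:103851749-103853216 on the minus strand (GRCm38, GENCODE M21), and Hba-a2, an alpha globin gene, at chr11:32296489-32297298 on the plus strand. The 120 bases before the RefSeq transcription start (GRCm38.p6) are shown for both, since the proximal elements of globin promoters are where erythroid and general factors are known to bind. Hbb-y is read from the minus strand of chr7:103853208-103853327 and Hba-a2 from the plus strand of chr11:32296372-32296491. Capitals mark the CACCC box and the CCAAT box, each named by the letters searched, and the TATA-like motif (ATAAA or ATATAA), all searched on both strands.
Hbb-y: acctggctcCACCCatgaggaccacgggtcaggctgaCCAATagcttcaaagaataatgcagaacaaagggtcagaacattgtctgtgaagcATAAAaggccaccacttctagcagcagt
Hba-a2: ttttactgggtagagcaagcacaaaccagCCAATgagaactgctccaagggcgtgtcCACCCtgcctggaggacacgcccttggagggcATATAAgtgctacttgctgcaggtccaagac

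Both windows held 1 CACCC box, 1 CCAAT box and 1 TATA-like motif, in a different order: the CACCC box starts 111 bases before the start in Hbb-y, ahead of the CCAAT box at 83, and 63 bases before it in Hba-a2, behind the CCAAT box at 91. The TATA-like motif starts 28 bases before the start in Hbb-y and 31 in Hba-a2. Windows of this length held a CACCC box in 31.7% of 32851 RefSeq promoters, a CCAAT box in 21.3% and a TATA-like motif in 21.9%, so none of these letters is particular to globin genes. A GATA motif (AGATAA or AGATAG, or TGATAA or TGATAG) was in 12.8% of the windows and in neither of these. The window of Hba-x held 1 CACCC box, 1 GATA motif, no CCAAT box and 2 overlapping TATA-like motifs. The RefSeq entries of Hba-a1 and Hba-a2 share a run of 297 bases, and the transcripts are near-identical, so reads of these copies cannot be safely told apart and are summed here. Of the 5 globins and Slc4a1, 4 had a promoter entry, and Hbb-bh1 and Slc4a1 are named only.

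Beyond globins, the E9.5 cells differed from the E8.0 cells in 211 of 10405 genes (2.03%; edgeR quasi-likelihood test on summed counts of 9 against 2 samples, Benjamini-Hochberg adjusted p under 0.05), 134 higher (1.29%) and 77 lower (0.74%). The called genes included 7 of 15 heme genes, both ferritin chains and 4 of 10 genes of the erythropoietin list, all higher at E9.5, and Car1 and Ahnak, both lower. The erythroid transcription factors and both cell-cycle lists gave no call. DESeq2 called 362 genes. The samples of the 2 stages did not overlap in 474 genes higher and 1019 genes lower at E9.5, so a lack of overlap was common. The count rests on both E8.0 samples: without Bar26, the larger, 1 gene passed, and without Bar27 27 passed.

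Plek2, a pleckstrin family protein with a role in red cell actin assembly, had the largest rise among called genes with at least 20 CPM in 1 stage. It stood at 4.36 CPM in Bar26 and 9.45 in Bar27, and at 30.5 to 82.0 with a median of 77.7 in the 9 E9.5 samples, with no overlap (log2 change 3.56, SE 0.43, edgeR adjusted p = 0.000815). Scarletltr, a long noncoding RNA of erythroid cells, rose by 3.47 (adjusted p = 0.0200, edgeR). Trib3 (2.68), the red cell pyruvate kinase Pklr (2.59), Pdzk1ip1 (2.52), Tinagl1 (2.51), Cox6b2 (2.39) and C1qtnf4 (2.37) followed on the log2 scale. A constant sign in the 13 fits that left out 1 sample was a condition for naming these genes. They passed in 7 (Trib3) to 12 (Plek2) of those fits.

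Car1, a carbonic anhydrase that lies beside Car2 on chromosome 3, had the largest fall by the same rule. It stood at 38.3 CPM in Bar26 and 33.1 in Bar27, and at 0 to 7.78 with a median of 1.19 at E9.5 (log2 change −3.62, SE 0.51, edgeR adjusted p = 0.0015). Car2 went the other way, from 1748 and 2029 CPM to a median of 2989 (log2 change 0.77, adjusted p = 0.0200). The giant scaffold protein gene Ahnak fell by 2.76 on the log2 scale, from 52.8 and 64.8 CPM to 1.67 to 18.6, and the semaphorin Sema6a by 2.35. Ddah1 (−2.35), Adarb2 (−2.31), the proapoptotic Bid (−1.79), the cation channel Trpm2 (−1.79) and Cpne7 (−1.61) fell too. The only called member among 7 tested progenitor factors and receptors was Runx1, the factor of blood emergence, which fell by 1.23 (28.3 and 36.6 to 9.51 to 16.9 CPM, adjusted p = 0.00363).

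Among 15 heme synthesis genes, 7 rose and none fell, with a list median of 0.49 on the log2 scale against −0.01 over all genes tested. Markers of other cell types had positive medians in the same contrast, with no call: 1.63 for endothelial (7 of 8 positive), 1.30 for cardiomyocyte (7 of 9) and 0.79 for mesenchyme markers (7 of 9). Their sums overlapped between stages, and their part in the stage changes was not tested. Alas2, the erythroid first enzyme, went from 133 and 143 CPM to 242 to 395 with a median of 310 (log2 change 1.30, SE 0.26, edgeR adjusted p = 0.0137), again with no overlap. The later enzymes Urod (0.88), Fech (0.86), Ppox (0.81) and Cpox (0.58) and the mitochondrial carrier Slc25a39 (0.70) rose by smaller amounts. Of 10 iron genes 3 rose: Fth1 (0.86, from 8368 and 8514 to a median of 14804 CPM), Ftl1 (0.80) and the second transferrin receptor Tfr2 (1.37).

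Of 19 tested red cell membrane genes, 18 had a positive change and 3 passed, among them the ammonium transporter subunit Rhag (1.74, from 31.2 and 48.0 to 70.6 to 158 CPM) and the adducin Add2 (0.75). Slc4a1 had a change of 0.73 that did not pass (edgeR adjusted p = 0.0607), with 393 and 432 CPM at E8.0 and 414 to 837 at E9.5. Of 9 redox genes, Hemgn (0.88), Car2 (0.77) and Gpx1 (0.60) rose. In the glycolysis list the pyruvate kinases went opposite ways: Pklr rose, and Pkm, the form of most other tissues, fell by 0.95 (from 1047 and 1064 to a median of 467 CPM), as did Eno1 (−0.74) and Pgam1 (−0.65).

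In the erythropoietin list 4 of 10 genes rose and all 10 changes were positive (median 1.05). Cish, a feedback inhibitor induced by STAT5, went from 1.68 and 3.15 CPM to 6.34 to 15.3 (log2 change 2.50, edgeR adjusted p = 0.00363). The survival gene Bcl2l1 went from 18.5 and 27.6 CPM to 55.0 to 131 (1.78, adjusted p = 0.0052), and the kinase Pim1 from 211 and 357 to 461 to 933 (1.23, adjusted p = 0.0015). Socs3, another feedback inhibitor, was at 0 and 0.336 CPM at E8.0 and at 2.68 to 6.73 at E9.5, a fitted change of 3.76 that rests on few UMIs. The receptor gene Epor itself had a change of 0.37 that did not pass.

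The E8.0 cells lay nearer the globin threshold, and the levels in bins of globin share separate the genes. At 10% to 20% globin, with 158 cells of 4 samples at E8.0 and 54 cells of 10 samples at E9.5, the stages had 132 and 166 CPM of Alas2, 313 and 315 of Fech, 8410 and 8104 of Fth1 and 1050 and 1085 of Pkm. The called changes of Pgam1 (434 and 707 CPM), Eno1 (516 and 592), Car2 (1908 and 1338), Hemgn (256 and 192), Gpx1 (2588 and 2228), Cpox (1020 and 886) and Urod (369 and 315) had the other sign in this bin. The 15 heme genes summed to 8315 and 6753 CPM there, and the 20 membrane genes to 2903 and 2678. Plek2 (7.27 and 28.5 CPM), Rhag (33.2 and 74.2), Bcl2l1 (20.4 and 45.7), Cish (2.27 and 8.24), Trpm2 (448 and 160), Runx1 (31.8 and 9.74) and Car1 (43.6 and 0) differed in the direction of the whole comparison. The 10 endothelial markers summed to 114 CPM at E8.0 and 425 CPM at E9.5 in this bin, and their part in these values was not tested. Load was not matched within the bin.

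**Figure D3:**
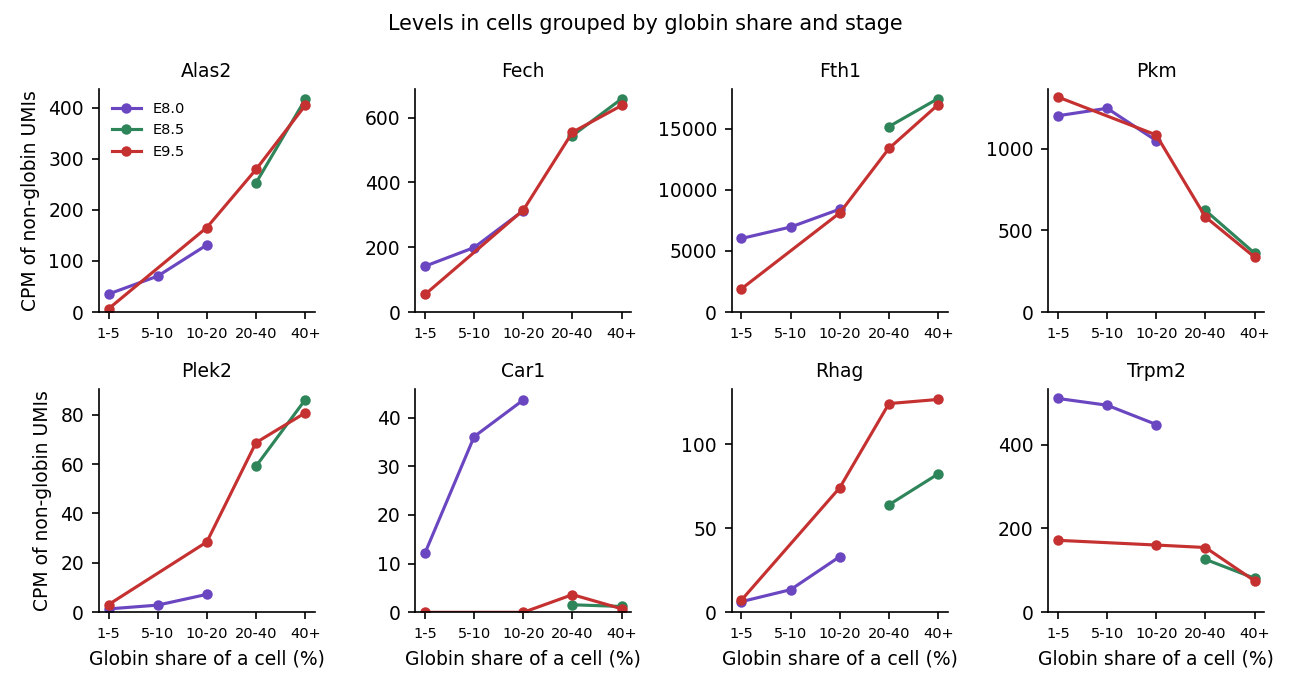
CPM of selected genes (y axes) in bins of globin share (x axis, percent of UMIs of the cell) for each stage, cells pooled over samples, bins under 50 cells left out. Alas2 is higher at higher globin share at each stage, and Plek2 at 10% to 20% globin is 7.27 at E8.0 and 28.5 at E9.5 and Car1 is 43.6 and 0.

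Of the erythroid transcription factors 0 of 12 passed, with changes of −0.10 in Gata1 and 0.01 in Klf1. The S-phase list had 12 of 14 changes negative (median −0.46) and the G2/M list 9 of 12 positive (median 0.04), with 0 calls in either by edgeR. The D cyclins and CDK inhibitors had 9 of 10 positive (median 0.73) and 0 calls.

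Of the 40 genes named for this contrast, 39 passed in the same direction at a globin threshold of 5%, which brings the E8.0 samples to 4. The cells added at 5% lay mostly at E8.0 (179 of 5% to 10% globin, against 26 at E9.5), which widens the difference in globin load between the stages. With run as a further term 38 passed, and within the 1 run that holds both stages 31 passed. The 40 genes were named because they passed in these same samples, so these counts are no independent support.

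**Figure D4:**
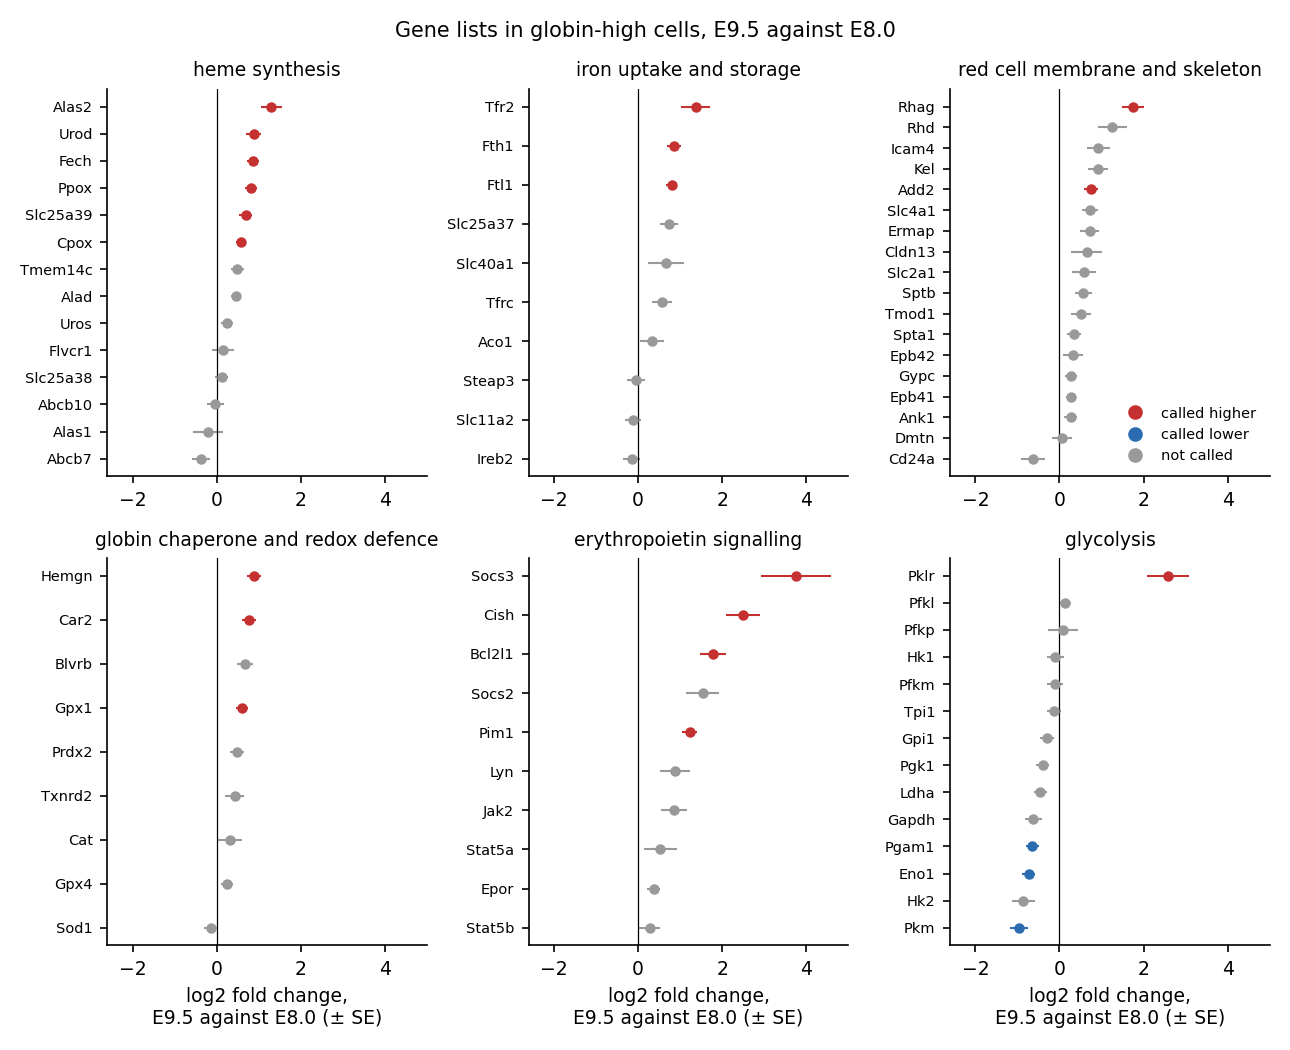
Log2 change from E8.0 to E9.5 with its SE (x axis, edgeR) of tested genes (y axis) of 6 fixed lists; red genes were called higher, blue lower and grey not called. The erythropoietin, heme, iron, membrane and redox genes lie mostly to the right of 0, with 4, 6, 3, 2 and 3 of the drawn genes called, and in glycolysis Pklr lies to the right and Pkm, Eno1 and Pgam1 to the left.

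The E8.5 cells also differed from the E8.0 cells, which serve as the reference in both contrasts. Against E8.0, 161 of 10405 genes passed (1.55%; edgeR, 2 against 2 samples), 85 higher (0.817%) and 76 lower (0.73%). Plek2 stood at 76.8 CPM in Bar3 and 41.7 in Bar1 (log2 change 3.41, edgeR adjusted p = 0.00324), Car1 at 1.42 and 0.802 (−4.55, adjusted p = 0.0115) and Ahnak at 1.65 and 2.41 (−4.79, adjusted p = 0.00274). Alad, Ppox, Fech and Tmem14c of the heme list, Fth1 and Ftl1, Pim1 and Cish rose, Runx1 fell, and Bnip3l, the mitophagy receptor of maturing red cells, rose by 0.93. Dapk2, Acss1, Aqp3, Lmx1a and the histone genes Hist1h2bm and Hist1h2ak were among the largest rises (2.04 to 2.34). Adarb2, Dqx1, Sema6a, Xaf1 and Gas2l3 were among the falls (−3.13 to −2.43). Endothelial markers had a median change of 2.04 in this contrast (7 of 8 positive) and cardiomyocyte markers of −1.43 (8 of 9 negative), with 0 calls in each, and their part in these changes was not tested. The endothelial sums were 119 and 106 CPM at E8.0 and 83.9 (Bar3) and 210 (Bar1) at E8.5, and the cardiomyocyte sums 110 and 79.5 against 44.5 and 39.3. No run holds both stages. A fit with an added run term, which rests on E9.5 samples and in the E8.5 run on Bar4 alone, called 7 genes. Without Bar3 or without Bar26 1 passed, without Bar27 49, without Bar1 79 and without Bar4 371.

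The ribosomal protein gene Rpl29 fell by 2.37 on the log2 scale between E8.0 and E8.5 (edgeR adjusted p = 0.00972), from 2080 and 2101 CPM to 358 and 399, and stood at 366 in Bar10 and 1295 to 1605 in the other 8 E9.5 samples. Between E8.5 and E9.5, edgeR called 0 of 10405 genes (0%), with 1370 at an unadjusted p under 0.05, and DESeq2 called 9. Without the control Bar4, the one E9.5 sample of the E8.5 run with 20 such cells, edgeR called 59.

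Wls RNA was low in globin-high cells of both genotypes. The 7 controls had 4.01 to 10.9 CPM (7.24 ± 2.66, SD), and the 6 mutants 0 to 3.17 (1.68 ± 1.36), with no overlap. Of 11407 genes, 8 were lower in mutants without overlap. The change was −1.75 on the log2 scale (SE 0.37) and did not pass over all genes (edgeR adjusted p = 0.156). In the other cells of the same samples Wls stood at 50.7 to 71.8 CPM in controls and 4.46 to 15.1 in mutants. None of 11 tested Wnt pathway genes passed, and all 11 changes were negative, Wls among them (median −0.26 against −0.00 over all genes, edgeR over all stages).

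Over all stages, 6 of 11407 genes differed between mutant and control globin-high cells (0.0526%; edgeR with stage and run, 6 against 7 samples), with 793 at an unadjusted p under 0.05. Hspa1a and Hspa1b, stress-induced Hsp70 chaperones, rose by 7.27 and 5.81 on the log2 scale (adjusted p = 0.00239 and 0.0135). Slc2a3, a glucose transporter, had 31.3 to 104 CPM in mutants and 11.2 to 38.0 in controls (1.26, adjusted p = 0.0173). Ciapin1, an iron-sulfur cluster protein needed for blood formation, fell by 0.68 (47.0 to 114 CPM against 82.4 to 186, adjusted p = 0.0135). The remaining calls, outside the naming rule, were the X-linked Fhl1 (1.20) and the noncoding Gm26917 (0.65). Leaving out 1 sample gave from 2 calls (without the control Bar22) to 26 (without the mutant Bar20), with 3 without Bar9 or Bar23 and 10 without Bar3, and Hspa1a passed in all 13 such fits, Slc2a3 in 11, Ciapin1 in 10 and Hspa1b in 9. Without the E9.5 samples no gene passed in edgeR, with 438 at an unadjusted p under 0.05. By male share, the mutants Bar27, Bar19 and Bar21 and the control Bar7 were mostly male. The other samples of this fit were mostly female.

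Within E9.5, 5 of 9 heat shock and metallothionein genes rose in the mutant cells, and the heme, membrane and erythroid factor lists gave no call. Here 25 of 11084 genes passed (0.226%, edgeR with run, 4 mutants against 5 controls), 22 higher (0.198%) and 3 lower (0.0271%), with 1113 at an unadjusted p under 0.05, and DESeq2 called 42. The control Bar4 was the only sample of its run in this fit, so with run in the model it carried no information on genotype. The 2 groups did not overlap in 190 genes higher and 246 genes lower in mutants. The heat shock and metallothionein list had 6 positive and 3 negative changes, with a median of 1.41 against 0.01 over all genes. Globin-high cells of the mutants in this fit held fewer genes at the median than those of the controls of their run. In the NovaSeq run these were 3432 (Bar19), 3529.5 (Bar21) and 4322 (Bar20), against 4566 (Bar22) and 4560 (Bar23). In the second NextSeq run they were 2557 (Bar10), against 2825 (Bar7) and 2932 (Bar9). Of the mutants outside the fit, Bar8 of the same run had 2978, above both controls. Bar5 of the first NextSeq run had 2625.5, against 4368 in Bar4. The part of the difference in gene number in the calls was not tested. Sex was not balanced: Bar19 and Bar21 among the 4 mutants, and Bar7 among the 5 controls, had male shares of 0.981, 0.969 and 0.936 (cells with more Y-linked than Xist UMIs, as a fraction of all sorted cells of the sample in which these counts differ), and the other samples of the fit 0.0165 to 0.0299.

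Hspa1a was at 446 CPM in Bar19, 391 in Bar21, 107 in Bar10 and 62.3 in Bar20, and in the controls at 0.279 (Bar4), 0.352 (Bar9), 0.805 (Bar22), 1.59 (Bar7) and 1.79 (Bar23). The groups did not overlap (log2 change 7.85, SE 0.76, edgeR adjusted p = 0.000413), and the gene passed in all 9 fits that left out 1 sample. Its neighbour Hspa1b (chr17:34956436-34959238, GRCm38; Hspa1a lies at chr17:34969190-34972156) is a near-identical copy, so the split of reads between them is uncertain. It had 402, 285, 111 and 27.2 CPM in the same mutants and 0 to 5.67 in the controls (6.20, adjusted p = 0.0036), and its call held in 7 of the 9 fits, lost without Bar10 (edgeR adjusted p = 0.105) or Bar9 (0.0533). With the male share as covariate the changes were 6.53 in Hspa1a and 4.62 in Hspa1b, and both passed in edgeR (adjusted p = 4e-09 and 0.000841). The rise was uneven between cells: a UMI of Hspa1a was found in 46.7% of globin-high cells in Bar19, 38.5% in Bar21, 14.3% in Bar10 and 10.4% in Bar20, against 0.355% to 3.42% in these controls.

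The metallothioneins, small metal-binding proteins encoded side by side on chromosome 8 (Mt1 at chr8:94179082-94180327, Mt2 at chr8:94172664-94173568), rose together. Mt1 stood at 9387 CPM in Bar21, 6246 in Bar19, 3241 in Bar10 and 3167 in Bar20, against 1657 in Bar22, 529 in Bar23, 308 in Bar9, 175 in Bar4 and 128 in Bar7. The groups did not overlap, and the change was 3.04 (SE 0.40, edgeR adjusted p = 0.0036). Mt2 had 703 to 1998 CPM in mutants and 23.8 to 456 in controls (2.76, adjusted p = 0.0134). Dnajb1, a partner of Hsp70, had 79.8 to 211 CPM against 45.4 to 57.9 (1.41, adjusted p = 0.0468). The call of Mt2 held in 5 of 9 fits that left out 1 sample, and without Bar22 its change was 3.65 and that of Mt1 3.74. That of Dnajb1 held in 2 of 9, and not with the male share as covariate (0.93, edgeR adjusted p = 0.0634), without called doublets (0.0508) or at a globin threshold of 20% (0.0519). Of the other members of the list, Hspa8, Hsph1, Hspe1 and Hsp90aa1 did not pass.

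**Figure D5:**
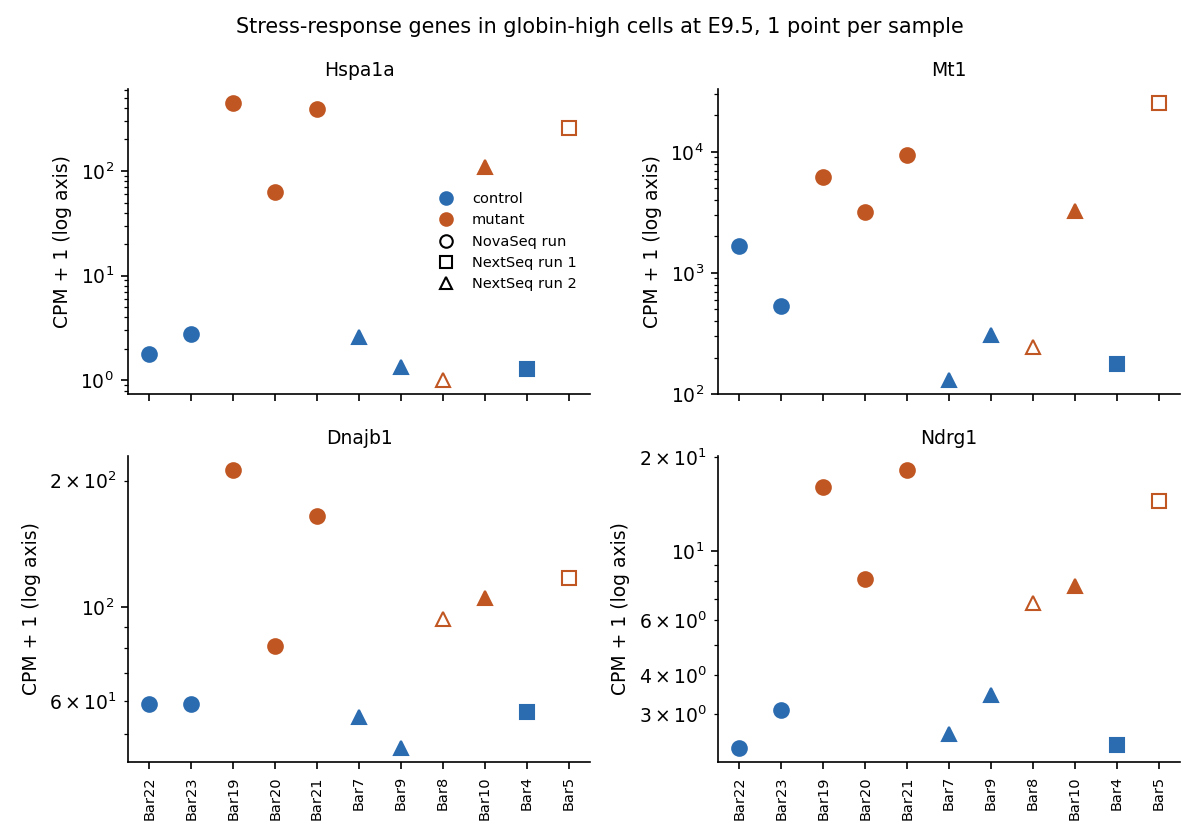
Level of Hspa1a, Mt1, Dnajb1 and Ndrg1 (y axes, CPM plus 1, log scale) in the globin-high cells of each E9.5 barcode sample (x axis), coloured by genotype with a marker shape for each run; open markers are samples with under 20 globin-high cells, and Bar6, with 2, is not drawn. The 4 mutants in the fit lie above all 5 controls in each gene, and the open mutant Bar8 has 0 CPM of Hspa1a and 244 of Mt1.

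The small mutants left out of the fit were divided. Bar5, with 18 globin-high cells, had 255 CPM of Hspa1a, 25407 of Mt1 and 13.4 of Ndrg1. Bar8, with 15, had 0 of Hspa1a, 244 of Mt1, 92.8 of Dnajb1 and 5.80 of Ndrg1, so its Mt1 lay in the range of the controls. Its 0 UMIs of Hspa1a allow up to 21.4 CPM (exact Poisson 95% limit), a limit that treats UMIs as independent. In Bar20 the 96 UMIs of Hspa1a came from 8 of 77 cells and in Bar10 from 5 of 35, so 15 cells cannot place Bar8 under these. In Bar5, Bar19 and Bar21 44.4%, 46.7% and 38.5% of the globin-high cells had a UMI of Hspa1a, against 0 of 15 in Bar8. That difference was not tested. The control Bar6, also left out, had a UMI of Hspa1a in 1 of its 2 globin-high cells. At the earlier stages Hspa1a was at 0 in the mutants Bar27 (E8.0) and Bar1 (E8.5). The genotype effect was not compared between stages in globin-high cells, since E8.0 had 1 control and 1 mutant with 20 such cells and the rule for that test was 2 of each. At a globin threshold of 5%, with 2 controls and 2 mutants at E8.0, edgeR called 8 of 8651 genes between genotypes there (0.0925%), among them Xist and 3 Y-linked genes. DESeq2 called 11. Genotype and sex cannot be told apart in this test. The male shares were 0.028 (Bar24) and 0.027 (Bar26) in the controls and 0.981 (Bar25) and 0.977 (Bar27) in the mutants. The same samples entered the interaction below. Mt1 had a change of −0.24 at E8.0 (edgeR adjusted p = 1), and Hspa1a was too low to be tested. The interaction of genotype with stage (E9.5 minus E8.0) passed in 0 of 10998 genes in edgeR (0%), with 502 at an unadjusted p under 0.05, and in 7 in DESeq2. For Mt1 the interaction was 3.24 (SE 0.66, edgeR adjusted p = 0.298). For Hspa1a the adjusted p was 0.972 in edgeR and 0.000739 in DESeq2, so its call depended on the tool.

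The other sorted cells of the same barcode samples gave other values, over 6 mutants (Bar5 and Bar8 included) and the 5 controls. Hspa1a was 1.85 to 4.20 CPM in mutants and 0.761 to 2.00 in controls, and of the mutants only Bar20 lay within the range of the controls. Mt1 in the other cells was 88.7 to 256 CPM in mutants and 11.8 to 80.8 in controls, and Dnajb1 39.9 to 56.8 in all. Ndrg1, the one called gene of 14 tested low-oxygen response genes, had 6.71 to 17.1 CPM in mutant and 1.34 to 2.46 in control globin-high cells (2.76, edgeR adjusted p = 0.0198), and 30.5 to 88.6 against 4.12 to 7.86 in the other cells. Its call held in 2 of 9 fits that left out 1 sample, and not with the male share as covariate (2.13, adjusted p = 0.146) or at a globin threshold of 20% (adjusted p = 0.0991). Of that list 13 of 14 changes were positive, with a median of 0.78. Ciapin1 was lower in mutants in both, with 47.0 to 73.9 against 82.4 to 157 CPM in globin-high cells (−0.73, adjusted p = 0.0340) and 86.7 to 105 against 133 to 172 in the others.

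Further rises at E9.5 were seen in the glycerophosphocholine phosphodiesterase Gpcpd1 (46.7 to 92.6 CPM against 27.5 to 33.8, log2 change 1.37, edgeR adjusted p = 0.0198), the histone gene Hist1h2bc (1.49) and the STAT5 target Pim1 (628 to 933 against 461 to 546, 0.62, adjusted p = 0.0367), the one call of the erythropoietin list. Hesx1, a homeobox gene, fell by 1.06 (adjusted p = 0.0213). The ribosomal pseudogene Rps13-ps1 passed (4.75, adjusted p = 0.0340) but split the samples across genotype, with 281 and 286 CPM in Bar19 and Bar21, 279 in the control Bar4 and 0 to 13.0 in the rest of the fit. With the male share as covariate its change was 1.15 (edgeR adjusted p = 0.68), and Hesx1, at −1.01, did not pass either (adjusted p = 0.12). Of the 9 fits that left out 1 sample, the call held in 5 for Hist1h2bc, in 3 for Gpcpd1 and Ciapin1, and in 2 for Pim1, Hesx1 and Rps13-ps1. Genes outside the naming rule that passed included the imprinted noncoding RNA H19 (0.73), Malat1 (0.74), the linker histone H1f0 (0.99) and Fhl1 (1.55).

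The count of E9.5 calls depended on single samples. Without the mutant Bar20, 487 genes passed. The NovaSeq run then held mostly male mutants (male shares 0.981 in Bar19 and 0.969 in Bar21) and mostly female controls (0.0191 in Bar22 and 0.0230 in Bar23). Genotype and sex cannot be told apart within that run in this fit. Without Bar10 1 passed, and without Bar9 2, Bar7 6, Bar22 10, Bar23 12, Bar21 13 and Bar4 16. Mt1 kept its call in 7 of the 9 fits and lost it without Bar10 (edgeR adjusted p = 0.173) or Bar9 (0.0533). Within the NovaSeq run alone, with 3 mutants and 2 controls, the change was 7.94 in Hspa1a and 2.62 in Mt1, and no gene passed over all genes in edgeR (adjusted p = 0.414 and 0.427), with 916 at an unadjusted p under 0.05.

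No heme, iron, membrane, redox or erythroid factor gene passed between genotypes at E9.5. Medians were 0.14 for heme synthesis, 0.07 for iron, 0.20 for the membrane, 0.17 for redox and 0.17 for the erythroid factors, with 0 calls of 15, 10, 19, 9 and 12 genes by edgeR. Klf1, at −0.49, had an adjusted p of 0.261. Of the membrane changes 15 of 19 were positive, and of the redox changes 8 of 9. The 20 membrane genes summed to 3799 to 4061 CPM in controls and 4010 to 5232 in mutants, and the 10 erythropoietin genes, Pim1 among them, to 806 to 921 and 965 to 1325 without overlap. Pim1 alone, the called gene, had 461 to 546 CPM in controls and 628 to 933 in mutants, so it made most of the latter sums. The S-phase and G2/M lists had medians of −0.08 and 0.13 and 0 calls of 14 and 12. The 10 cardiomyocyte markers had positive changes (median 0.91, 0 calls), with sums of 44.7 to 499 CPM in controls and 96.6 to 482 in mutants. Endoderm markers had a median of 1.70 (4 of 5 positive, 0 calls), with sums of 1.95 to 20.6 CPM in controls and 8.83 to 147 in mutants, the highest in Bar20. Endothelial and mesenchyme markers had medians of −0.65 and −0.19 (6 of 9 negative in each, 0 calls). The part of these markers in the called genes was not tested.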

How the data were processed

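The files held whole-number UMI counts per gene and cell as the authors deposited them, in 1 matrix over all sequencing runs, with a table that gives the MULTI-seq barcode, stage, condition and run of each cell. Per the submitters' processing notes, kallisto, bustools 0.46.1, Cell Ranger and the GRCm38 build were used. All cells of that table were kept, called doublets (Scrublet in scanpy 1.11.5) included. The members and gene lists were chosen with earlier results of these data known.

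Counts of the globin-high cells were summed per barcode sample, 11 globin genes were left out of totals and tests, and samples with at least 20 such cells were fitted with edgeR 4.0.16 (quasi-likelihood test, TMM, filterByExpr, R 4.3.3; adjusted p under 0.05). Genotype was fitted with stage and run, or with run within E9.5. Stages were fitted with genotype. DESeq2 1.42.0 was an alternative. Shares and chain ratios were compared by exact permutation tests (scipy 1.17.1), shares as log2 odds with 0.5 added to each count. Nothing says that barcodes are separate embryos, so p-values measure the spread between barcode samples, which may be technical. Across genes, the genotype test at E8.0 and that of genotype by stage were fitted at a 5% threshold only, where each group had 2 samples. Intervals and limits of a count of 0 cover counting error only. The limit was 3 counts for shares of cells, and the exact Poisson limit for the UMIs of Hspa1a in Bar8.

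Named genes were the 8 largest rises and falls among called genes with 20 CPM in 1 group, a gene symbol that is no clone name and a constant sign when 1 sample was left out, plus called members of the lists, Wls, and up to 4 members of each list by level. Of 51923 symbols 51846 were found in GENCODE M21. Some list members are not reported here. The edgeR script was tested on simulated data. For genotype at E9.5, 193 of 10425 genes were altered there, and 23 calls were false. Of the genes altered less 55.2% were called, and of those altered more 90.7%. False calls numbered 10 for genotype over all stages and 13 for E9.5 against E8.5. They numbered 9 for E9.5 and 6 for E8.5 against E8.0. The share of false calls in the deposited data was not tested.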

Additional observations from a re-analysis of the deposited data

Results flagged for a closer look

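Of 74 groups of 4 to 10 samples checked for a sample far from the others, 10 held one, and chance gives about 1 in 20. Among the E9.5 controls, Bar22 stood apart with 1657 CPM of Mt1 and 456 of Mt2, and Bar4 with 279 CPM of Rps13-ps1. Among the E9.5 mutants, Bar20 had the lowest Hbb-y share of beta-like UMIs, 71.6%, and Bar10 the lowest Ciapin1, 47.0 CPM. Over the 9 E9.5 samples, Bar19 stood apart with the lowest Plek2 (30.5 CPM) and the highest Socs3 (6.73 CPM), Bar10 with the highest Cox6b2 (489.8 CPM) and Bcl2l1 (131 CPM), and Bar23 with the highest Trpm2 (276 CPM).

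Bar18, labelled E7.5 and used in no comparison, held 19 globin-high cells among 28 (67.9%, 95% Wilson interval 49.3% to 82.1%), the highest share of any sample.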

How the results depend on the processing

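Counts of called genes moved with the settings, and the cause was not tested. For genotype over all stages (6 genes) DESeq2 called 22, no filter on low counts 164, a minimum of 50 cells 1, a globin threshold of 5% 2, fits without E8.5 11, the share of male cells as covariate 18, and cells of 20% to 40% globin, a setting chosen after seeing the data, 1. Fits without E9.5 and in the NovaSeq run alone called 0 by edgeR, with 438 and 631 at an unadjusted p under 0.05. For genotype at E9.5 (25 genes) DESeq2 called 42, no filter 244, 50 cells 1, a threshold of 20% 15 and 20 cells drawn per sample 10, while the 20% to 40% band and the NovaSeq run called 0 by edgeR, with 752 and 916 unadjusted. For E9.5 against E8.0 (211 genes) DESeq2 called 362, no filter 509, a minimum of 10 cells 456, 50 cells 23, a threshold of 5% 1964 and 20 drawn cells 60. For E8.5 against E8.0 (161 genes) these settings called 406, 668, 259, 22, 1791 and 39, and run as a further term 7. Between E9.5 and E8.5 (0 genes) DESeq2 called 9, no filter 243, 50 cells 1 and run as a term 2. A threshold of 20% could not be fitted for stages with E8.0.

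The genotype difference in share turned to −0.459 log2 odds at a threshold of 5%, to −0.00500 at 20% and to −0.0521 without Bar29. The stage differences of 34.3 and 8.64 points within 1 run no longer passed, which 7 samples could not allow after adjustment. The genotype difference in Hbb-y share turned to 1.62 points at 5%, 0.999 in 1 run and 0.498 without Bar3 or Bar1.

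Leaving out 1 sample gave 2 to 26 genes for genotype, 1 to 487 at E9.5, 1 to 253 for E9.5 against E8.0, 1 to 371 for E8.5 against E8.0 and 0 to 59 between E9.5 and E8.5. It gave log2 odds of −0.0521 to 0.992 for share by genotype and 3.20 to 4.79 by stage, Hbb-y differences of 32.7 to 40.1 points by stage and −2.92 to 0.498 by genotype, and alpha globin differences of 7.68 to 8.66 and 0.527 to 1.77. Single named genes kept direction and call in 1476 settings, lost the call in 490 and reversed in none. The naming rule already required a constant sign of the largest rises and falls when 1 sample was left out. The lack of reversals was therefore partly fixed in advance. No paired analysis was possible because the barcodes carry no replicate numbers shared between groups. Both chain ratios lost the stage call without Bar26 or Bar27 (exact p = 0.1). Other alternatives of the E8.0 genotype test and of genotype by stage were not run. The E8.0 contrasts are limited by their 2 samples. Among the 13 samples used for gene tests, depth was lowest in Bar10, with 298061 non-globin UMIs.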

Other observations

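The pseudogene Hbb-bh0, between Hbb-bh1 and Hbb-y in the beta globin cluster, was high in 6 samples, of which Bar1, Bar2, Bar3, Bar4 and Bar6 are in the first NextSeq run and Bar25 in the NovaSeq run; Bar5 of the first NextSeq run had 170 CPM. Globin-high cells had 1773 CPM in Bar3, 3911 in Bar1, 3067 in Bar2, 2964 in Bar4, 1912 in Bar6 and 1972 in Bar25, and 87.7 to 265 CPM elsewhere.

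The E7.5 sample Bar18 had a median globin share of 41.7% in its 19 globin-high cells, Hbb-y made 76.1% of beta-like UMIs and alpha globin 24.1% of alpha-like UMIs. Its Plek2 stood at 72.8 CPM and Car1 at 0. These values lie in the range of the E9.5 samples and not in that of the E8.0 samples, and whether the label holds was not tested.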
